A study of Mus musculus with 4 samples.

Results

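Cholesterol is made, taken up and stored as ester in the liver by a chain of enzymes and carriers, and 28 genes of that chain were followed in mouse liver after delivery of Cre to a floxed allele of Trib1. They were chosen by name among the 30139 genes of the array. They comprise 20 genes of the synthesis pathway, 6 of uptake and transport and 2 of esterification. They were measured by 42 probes, and 27 of them passed the filter on dim probes. The remaining one was Npc1l1, the sterol carrier best known from the intestine, which was not well above background in any of 8 channels. Female C57B/6 mice of 8 to 10 weeks were used, and both groups were homozygous for the floxed Trib1 allele. One group received an adeno-associated virus that carries Cre recombinase (AAV_Cre), which cuts out DNA between loxP sites, and the control group received AAV_Null. Liver RNA was taken 1 week later after a fast of 4 hours. The study asked how Trib1, a pseudokinase that hands C/EBPα over for ubiquitination, affects lipid synthesis in the liver. The promoter that drives Cre and the number of animals behind each RNA were not given in the sources used here.

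Cholesterol synthesis starts from acetyl-CoA, runs through mevalonate to isoprenoid diphosphates, joins these into squalene, closes the sterol ring to lanosterol and then trims and reduces lanosterol to cholesterol. Most of these enzymes are transcribed under SREBP-2, a membrane-bound factor that is held back by Insig proteins when sterol is plentiful and released when sterol is scarce. Cholesterol that enters a cell in lipoproteins leaves the lysosome through Npc2 and Npc1, and excess cholesterol is joined to a fatty acid by the acyltransferases Soat1 and Soat2.

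RNA labelled AAV_Cre and RNA labelled AAV_Null were hybridised together on each of 4 Agilent 2-colour arrays, with 1 RNA of each treatment per array. Arrays 1 and 2 carried the AAV_Cre RNA in Cy5, and arrays 3 and 4 carried it in Cy3. Between 51.0% and 58.7% of the spots of a channel were well above background, and 0 were saturated. Trib1 was not lower in the RNA labelled AAV_Cre. Its RefSeq probe of highest intensity was higher, with a log2 ratio of 0.94 ± 0.08 (SE, n = 4 arrays, limma adjusted p = 0.0204). A second RefSeq probe read 1.29, and a probe for an Ensembl transcript read -0.05. Which part of Trib1 the floxed allele removes was not given, so these probes do not check the labels, and every direction below is for the RNA labelled AAV_Cre. The log2 ratios correlated across all genes at 0.67 between arrays 1 and 2, at 0.49 between arrays 3 and 4, and at 0.06 to 0.19 between arrays of opposite orientation. All 8 hepatocyte markers were well above background in all 8 channels. Of 47 tested markers of 8 cell types, 1 passed, a stellate cell marker that was higher in AAV_Cre RNA, against 2.8% of all genes. Of the 6 tested stellate markers 0 were below 0, and their median was 0.34. On arrays 1 to 4 the stellate medians were 0.35, 0.57, 0.16 and 0.31. Medians of the other cell type lists ran from -0.25 (erythroid) to 0.20 (cholangiocyte). The part of cell composition in the members' ratios was not tested. The defining markers Des, Krt7, Klrb1c and Il7r were above background in 0 channels.

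Of the 27 members tested, 2 fell and 0 rose. They were Idi1, the isomerase that makes the reactive isoprenoid unit, and Soat2, the cholesterol acyltransferase of hepatocytes and enterocytes. Idi1 was 0.707-fold and Soat2 0.749-fold of the level in AAV_Null RNA. The test was limma on the log2 ratio of AAV_Cre over AAV_Null with a dye effect, and p was adjusted by Benjamini-Hochberg over 16079 genes with a threshold of 0.05. Of all genes tested, 2.8% passed in either direction, 0.976% lower and 1.83% higher. Neither call held when any 1 of the 4 arrays was left out, with a normexp offset of 16, with no detection filter or with a robust and trended prior variance, and that of Soat2 was also lost without the dye effect. Almost no gene could pass in some of these fits. Of all genes, 13, 0, 0 and 0 passed without array 1, 2, 3 and 4, and 0 with the robust and trended prior variance. The offset of 16 left 200 calls and no detection filter 288, against 451 in the test described above. In that test 8 members had an unadjusted p under 0.05, 7 lower and 1 higher, or 29.6% of the 27, against 22.6% of all genes. A fitted log2 ratio below 0 was found for 20 members (74.1%) and for 50.2% of all genes. The members' median log2 ratio was -0.11 and that of all genes was -0.0007. Without array 1 the members' median was -0.02 and 14 of the 27 had a ratio below 0. The dye term stayed in that fit, so array 2 weighed as much as arrays 3 and 4 together. The members were measured in the same RNAs and are not independent of each other, so these shares describe the list and carry no test.

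**Figure D1:**
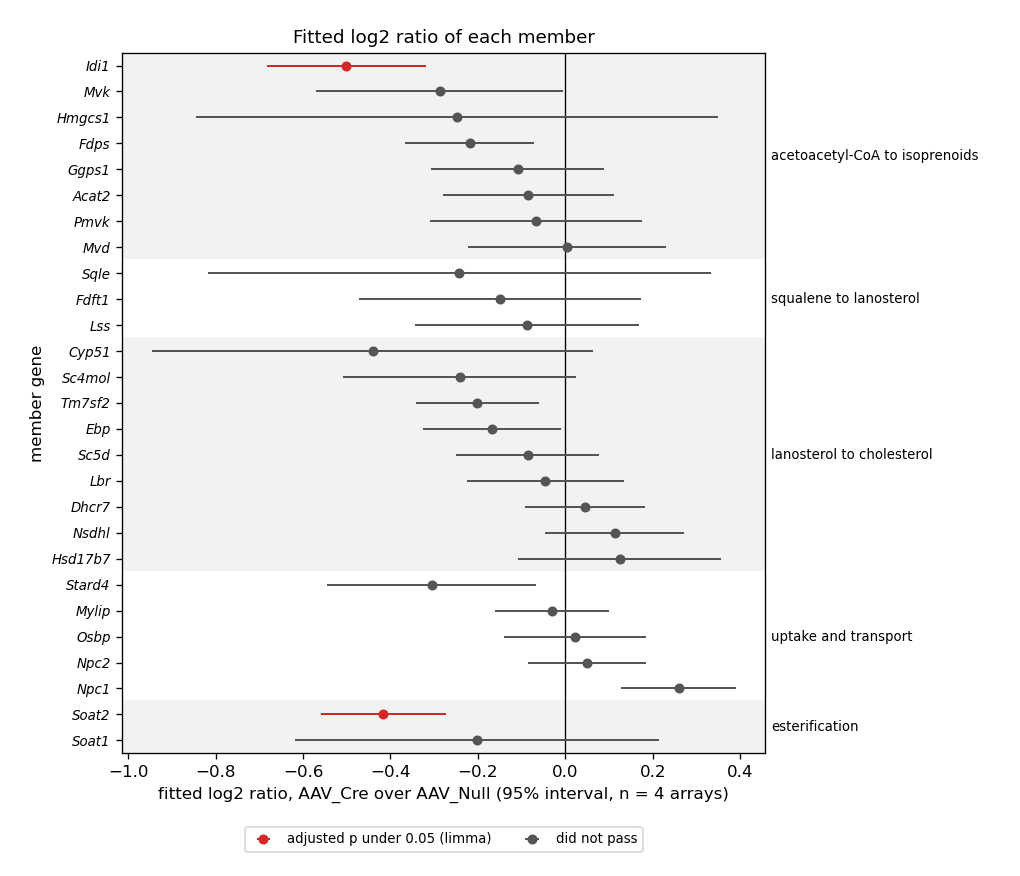
Fitted log2 ratio of AAV_Cre over AAV_Null (x axis) for the 27 members tested (y axis), grouped by role. Points are the limma estimates over 4 arrays, bars their 95% intervals, and red marks the 2 members with an adjusted p under 0.05, Idi1 and Soat2. The intervals of 7 members lie below 0 and that of Npc1 lies above 0.

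The members share a promoter feature that is known for SREBP-2 targets, where the CCAAT-binding factor NF-Y sits near the sterol element. RefSeq promoter windows of 300 bases (250 before and 50 from the start site on, build GRCm38.p6) were found for 22 of the 28 members. The letters CCAAT, or ATTGG on the other strand, were present for 21 of these 22 (95.5%), every one but Acat2. They were present for 41.1% of all genes with a window and for 42.4% of the 10416 tested genes with one. The GC box letters GGGCGG, on either strand, were present for 19 members (86.4%), against 38.2% of all genes and 63.6% of the tested genes. The sterol element core TCACNCCAC, on either strand, was found in 1 member, Hmgcs1 (4.55%), against 1.44% of all genes and 1.4% of the tested genes. The E-box CACGTG was found in 3 members (13.6%), Dhcr7, Hsd17b7 and Sc5d, against 8.09% and 11.2%. Each match is a match of letters and not a measured binding site. The stretches below are the 150 bases before the start site of the 6 synthesis members with the lowest fitted ratios among those with a window, and they show where the CCAAT letters lie in the genes discussed next. Capitals mark CCAAT or ATTGG and, in Hmgcs1, the sterol element core. The sequences are RefSeq's, on GRCm38.p6, written 5′ to 3′ on the gene's strand.
Idi1: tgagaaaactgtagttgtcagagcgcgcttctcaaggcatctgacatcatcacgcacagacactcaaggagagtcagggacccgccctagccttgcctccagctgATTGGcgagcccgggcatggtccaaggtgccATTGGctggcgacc
Cyp51: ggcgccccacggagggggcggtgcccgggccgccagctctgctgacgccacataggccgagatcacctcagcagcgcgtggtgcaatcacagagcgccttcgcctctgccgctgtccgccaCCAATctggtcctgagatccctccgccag
Mvk: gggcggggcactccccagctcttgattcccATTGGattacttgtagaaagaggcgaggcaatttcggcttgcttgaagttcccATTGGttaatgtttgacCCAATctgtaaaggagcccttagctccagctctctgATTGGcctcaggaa
Hmgcs1: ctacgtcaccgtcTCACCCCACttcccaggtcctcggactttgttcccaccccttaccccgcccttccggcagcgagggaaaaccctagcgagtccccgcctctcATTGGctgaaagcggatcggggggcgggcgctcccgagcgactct
Sc4mol: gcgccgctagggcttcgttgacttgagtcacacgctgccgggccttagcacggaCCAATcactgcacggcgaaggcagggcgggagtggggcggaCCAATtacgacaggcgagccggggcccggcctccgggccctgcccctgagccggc
Tm7sf2: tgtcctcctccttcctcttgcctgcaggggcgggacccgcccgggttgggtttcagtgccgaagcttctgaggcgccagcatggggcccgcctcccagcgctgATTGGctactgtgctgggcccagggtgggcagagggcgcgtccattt
They lie at chr13:8885456-8885605 (plus strand) for Idi1, chr5:4104698-4104847 (minus strand) for Cyp51, chr5:114444119-114444268 (plus strand) for Mvk, chr13:119690201-119690350 (plus strand) for Hmgcs1, chr8:64733579-64733728 (minus strand) for Sc4mol and chr19:6067851-6068000 (minus strand) for Tm7sf2. Mvk has 4 CCAAT matches in its stretch, Idi1 and Sc4mol have 2 each, and Cyp51, Hmgcs1 and Tm7sf2 have 1 each. Whether the number of matches goes with the log2 ratio was not tested.

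Among the 8 genes from acetoacetyl-CoA to the isoprenoid diphosphates, 1 fell, 0 rose and 7 had a ratio below 0, with a median of -0.16. Idi1 was measured by 1 probe, at chr13:8891524-8891583 on mm9, plus strand. Its log2 intensities in AAV_Null RNA were 14.46, 13.36, 13.41 and 13.84 on arrays 1 to 4. In AAV_Cre RNA they were 13.83, 12.97, 12.83 and 13.44. The AAV_Cre RNA was the lower of the pair on every array, while the ranges of the groups overlapped: the AAV_Cre levels of arrays 1 and 4 were above the AAV_Null levels of arrays 2 and 3. The log2 ratios were -0.63, -0.39, -0.58 and -0.40, and the fit gave -0.50 ± 0.07 (SE, n = 4 arrays, limma adjusted p = 0.0440). Its 95% interval was -0.68 to -0.32. With 1 array left out the limma adjusted p was 0.119 to 0.217.

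Fdps, farnesyl diphosphate synthase, is the next enzyme after Idi1 and did not pass. Its log2 ratios were -0.48, -0.34, -0.08 and 0.02, and its fitted ratio was -0.22 ± 0.06 (limma adjusted p = 0.122). Mvk, mevalonate kinase, read -0.79, -0.35, -0.20 and 0.19, for a fitted -0.29 ± 0.11 (limma adjusted p = 0.216). Array 1 was the lowest and array 4 the highest for both genes. A second, dimmer Mvk probe had the same order of arrays and a fitted ratio of -0.12. Hmgcs1, the cytosolic HMG-CoA synthase, had log2 intensities of 13.56, 12.48, 12.97 and 13.30 in AAV_Null RNA and 12.70, 12.98, 12.60 and 13.03 in AAV_Cre RNA. The ratio was below 0 on arrays 1, 3 and 4 (-0.85, -0.37 and -0.27) and above 0 on array 2 (0.50). Its range over arrays of 1.36 was exceeded by 2.07% of all genes, and its fitted ratio of -0.25 ± 0.23 had an interval from -0.85 to 0.35.

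The other enzymes of this stretch had smaller ratios. Acat2, the cytosolic thiolase that joins acetyl-CoA units, read -0.08 ± 0.07. It is a different gene from Soat2, whose protein is also called ACAT2. Pmvk, phosphomevalonate kinase, read -0.07 ± 0.09 and Mvd, which decarboxylates mevalonate diphosphate, 0.0035 ± 0.0860. Ggps1, which makes the geranylgeranyl group for protein prenylation and stands on a side branch, read -0.11 ± 0.08, and its other probes -0.01 and -0.01. The limma adjusted p-values of these 4 ran from 0.451 to 0.985. Pmvk and Mvd turned to the other side of 0 under some other settings, whose values are in the section on processing.

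**Figure D2:**
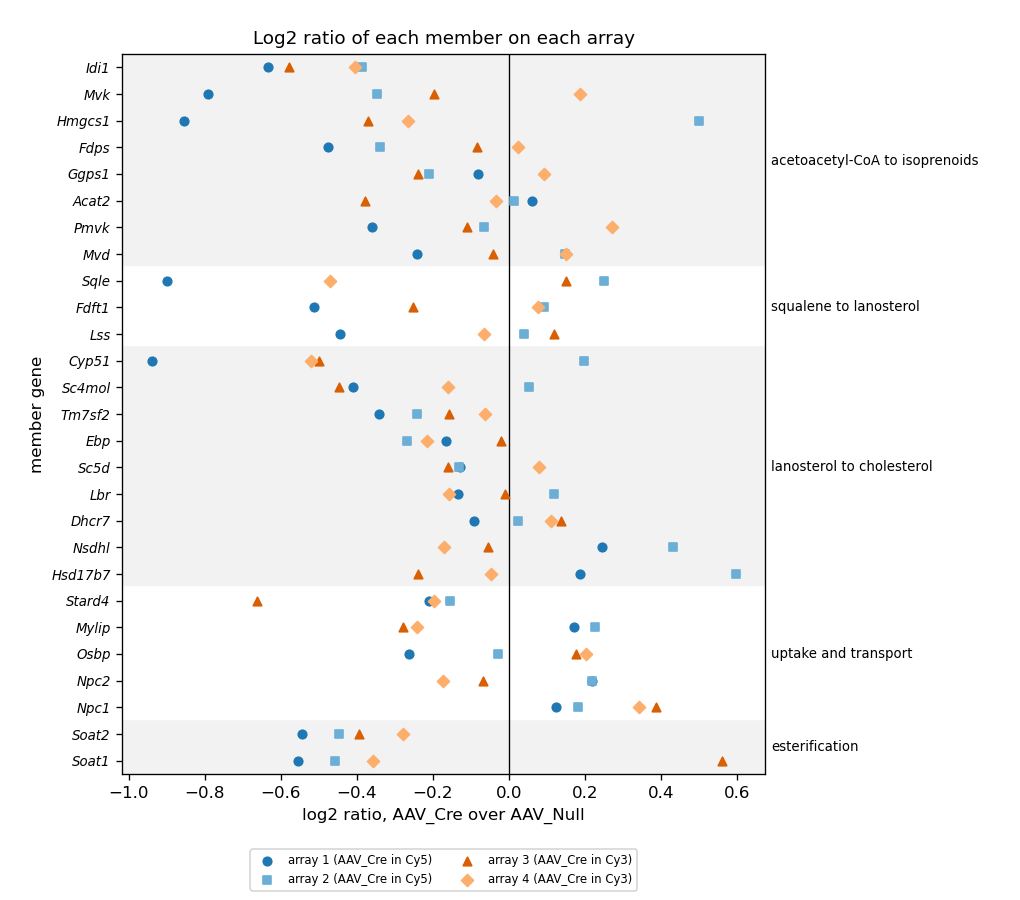
Log2 ratio of AAV_Cre over AAV_Null (x axis) of each of the 27 members tested (y axis) on each array, coloured blue where AAV_Cre was in Cy5 and orange where it was in Cy3. Points of Idi1, Soat2, Tm7sf2, Ebp and Stard4 lie below 0 on 4 of 4 arrays and those of Npc1 above 0 on 4 of 4, while Hmgcs1, Sqle, Cyp51 and Soat1 spread over more than 1 log2 unit.

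Squalene synthase, squalene epoxidase and lanosterol synthase carry the pathway from farnesyl diphosphate to the first sterol, and 0 of these 3 passed. Fdft1, squalene synthase, read -0.51, 0.09, -0.25 and 0.08 on arrays 1 to 4. Sqle, the epoxidase and a rate-limiting step of the pathway, read -0.90, 0.25, 0.15 and -0.47. Lss, lanosterol synthase, read -0.45, 0.04, 0.12 and -0.07. All 3 were lowest on array 1 and at or above 0.04 on array 2. The fitted ratios were -0.15 ± 0.12 for Fdft1, -0.24 ± 0.22 for Sqle and -0.09 ± 0.10 for Lss, with limma adjusted p-values of 0.521, 0.559 and 0.639. The levels of Sqle had an SD of 0.77 among the AAV_Null RNAs, highest on array 1 and lowest on array 2, and of 0.35 among the AAV_Cre RNAs.

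Of the 9 genes that turn lanosterol into cholesterol, 0 passed in either direction, 6 had a ratio below 0, and the median was -0.09. Cyp51, the lanosterol demethylase, had the lowest ratio of these 9. Its log2 intensities were 10.19, 9.04, 9.57 and 9.74 in AAV_Null RNA and 9.25, 9.24, 9.07 and 9.22 in AAV_Cre RNA. The AAV_Cre levels lay close together, with an SD of 0.08 against 0.47 in AAV_Null RNA, and array 2 was the only one with AAV_Cre RNA above its partner. The ratios were -0.94, 0.20, -0.50 and -0.52, and the fit gave -0.44 ± 0.19 with a limma adjusted p of 0.269. Its 95% interval of -0.95 to 0.06 holds a fall as large as that of Idi1 as well as no change. Sc4mol, the older name of the sterol methyl oxidase Msmo1, read -0.41, 0.05, -0.45 and -0.16, for a fitted -0.24 ± 0.10 (limma adjusted p = 0.255).

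Tm7sf2 and Ebp had small ratios of 1 sign. Tm7sf2, a sterol reductase of the endoplasmic reticulum, read -0.34, -0.24, -0.16 and -0.06, for a fitted -0.20 ± 0.05 (limma adjusted p = 0.129), and its second probe read -0.10. Ebp, the sterol isomerase, read -0.17, -0.27, -0.02 and -0.22, for a fitted -0.17 ± 0.06 (limma adjusted p = 0.205). Ebp was the 1 member of 27 whose levels did not overlap between the groups. They ran from 15.87 to 16.01 in AAV_Cre RNA and from 16.02 to 16.22 in AAV_Null RNA. These levels were taken after loess normalisation. With median centring instead, the fitted ratio of Ebp was -0.06 (limma adjusted p = 0.772). Of all genes, 2.63% had non-overlapping levels with AAV_Cre lower and 3.25% with AAV_Cre higher. A ratio below 0 on every array was found for 5 members, with Idi1, Soat2 and Stard4 as the other three, against 11.3% of all genes. A ratio above 0 on every array was found for 1 member, Npc1, against 12.3% of all genes.

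The remaining sterol-trimming enzymes lay near 0. Sc5d, the lathosterol oxidase, read -0.09 ± 0.06, Lbr, a nuclear envelope protein with sterol reductase activity, -0.05 ± 0.07, and Dhcr7, which makes cholesterol in its last step, 0.05 ± 0.05. Nsdhl and Hsd17b7, which act with Sc4mol to remove methyl groups, read 0.11 ± 0.06 and 0.12 ± 0.09. Both read higher than the partner RNA on arrays 1 and 2 and lower on the other pair. The probes of Hsd17b7 did not share a sign: its 2 dimmer probes read 0.08 and -0.12. The second probe of Nsdhl read 0.27, above 0 on 4 of 4 arrays, with a limma unadjusted p of 0.0198 and an adjusted p over probes of 0.149.

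Of the 5 uptake and transport genes tested, 0 passed, and their median was 0.02. Npc1, the membrane protein that exports cholesterol from lysosomes, was the member with the highest ratio. Its log2 intensities were 8.98, 9.33, 9.12 and 9.43 in AAV_Null RNA and 9.10, 9.51, 9.51 and 9.77 in AAV_Cre RNA. AAV_Cre RNA was the higher of the pair on every array, and the groups' ranges overlapped. The ratios were 0.12, 0.18, 0.39 and 0.34, and the fit gave 0.26 ± 0.05 with an interval of 0.13 to 0.39 and a limma adjusted p of 0.0785. It passed with no background correction (0.31), with the scanner's processed signals (0.33), with the authors' deposited log2 values (0.31) and in a separate-channel fit (0.26). These settings called 1412, 728, 1372 and 2515 genes in all, against 451. Npc1 did not pass in any other of the 16 alternatives, with limma adjusted p-values of 0.0624 to 0.342. Npc2, the soluble lysosomal protein that hands cholesterol to Npc1, read 0.22, 0.22, -0.07 and -0.17, for a fitted 0.05 ± 0.05.

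Stard4, a soluble carrier that moves sterol between membranes, was on the other side of 0. It read -0.21, -0.15, -0.66 and -0.20, for a fitted -0.31 ± 0.09 (limma adjusted p = 0.153), and its dimmer probe read -0.20. Array 3 lay apart from the other three. Osbp, which exchanges sterol between the endoplasmic reticulum and the Golgi, read 0.02 ± 0.06, with a second probe at 0.12. Mylip, a ubiquitin ligase that lowers lipoprotein receptors, read 0.17, 0.23, -0.28 and -0.24, for a fitted -0.03 ± 0.05. The signs of Acat2, Nsdhl, Hsd17b7, Npc2, Mylip and Osbp followed the dye orientation, which is also a split between RNA pairs, and these cannot be told apart. The dye term of the limma fit was called for 0 of the 27 members, against 2.84% of all genes, and its adjusted p for these 6 lay between 0.0888 and 0.367. The hepatocyte marker list split the same way as the first 5 of them, with medians of 0.31, 0.26, -0.29 and -0.50 on arrays 1 to 4. Of its 8 markers 0 passed, and their summed level ran from 19.65 to 20.53 in AAV_Cre RNA and from 19.95 to 20.52 in AAV_Null RNA. The endothelial list also split this way, with medians of 0.13, 0.01, -0.37 and -0.40. The part of either list in these ratios was not tested.

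Of the esterification enzymes, Soat2 fell and Soat1 did not pass. The Soat2 probe lies at chr15:101993657-101993716 on mm9, plus strand. Its log2 intensities were 13.09, 12.94, 13.05 and 12.63 in AAV_Null RNA and 12.55, 12.49, 12.66 and 12.35 in AAV_Cre RNA. The groups overlapped only through array 4, whose AAV_Null RNA was below the AAV_Cre RNA of array 3. The ratios were -0.54, -0.45, -0.39 and -0.28, a range of 0.27, and the fit gave -0.42 ± 0.05 (SE, n = 4 arrays, limma adjusted p = 0.0401). Its 95% interval was -0.56 to -0.27. With 1 array left out the limma adjusted p was 0.119 to 0.232.

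Soat1, the acyltransferase of macrophages and many other cells, was dim and was well above background in 3 of the 4 channels of each treatment. Its ratios were -0.56, -0.46, 0.56 and -0.36, for a fitted -0.20 ± 0.16 (limma adjusted p = 0.499). Array 3 was the only one above 0, where the AAV_Null level was 6.71 against 7.29 to 7.36 on the other arrays. The Kupffer cell and macrophage list had medians of -0.31, -0.23, 0.35 and -0.64, with the same signs. Of its 11 tested markers 0 passed and 10 were below 0, and their summed level ran from 15.05 to 15.98 in AAV_Cre RNA and from 15.49 to 16.14 in AAV_Null RNA. The B cell list had the same signs too, with medians of -0.19, -0.27, 0.29 and -0.28. The part of either list in the Soat1 ratios was not tested. In RNA from whole tissue, fewer cells of a type and less RNA per cell cannot be told apart.

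**Figure D3:**
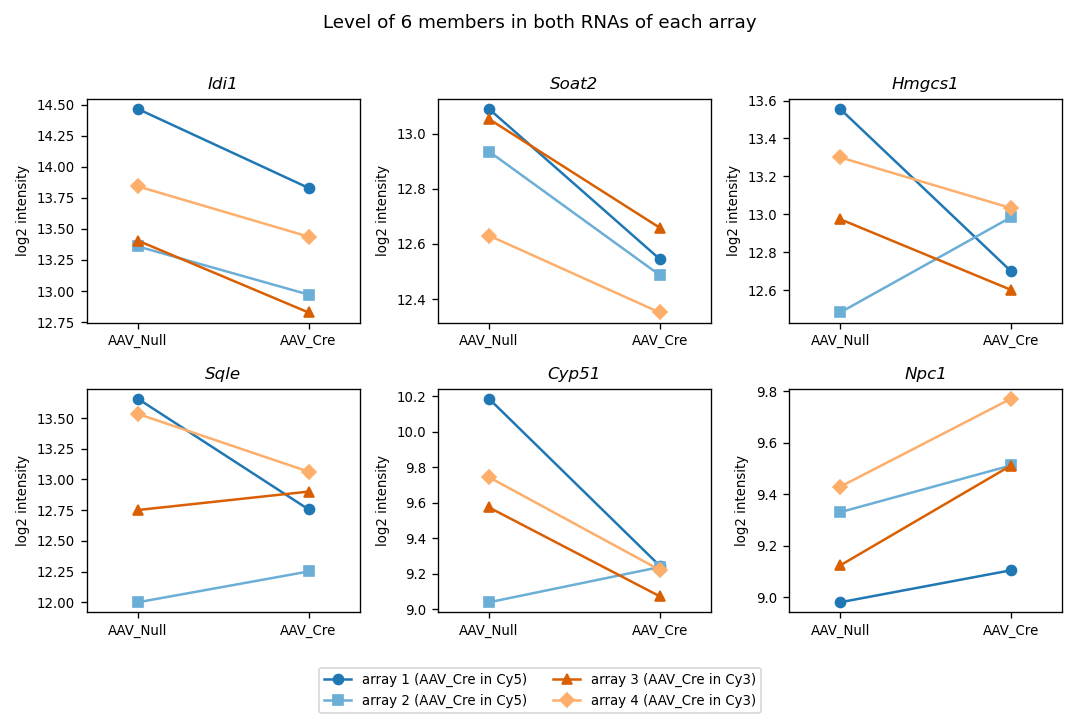
Normalised log2 intensity (y axis, scaled separately in each panel) of Idi1, Soat2, Hmgcs1, Sqle, Cyp51 and Npc1 in the AAV_Null and AAV_Cre RNA of each array, joined by a line. Lines of Idi1 and Soat2 fall and those of Npc1 rise on 4 of 4 arrays, and Hmgcs1 and Cyp51 fall on 3 and rise on array 2.

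The arrays differed in how far the synthesis genes moved. The median log2 ratio of the 27 members was -0.26 on array 1, 0.03 on array 2, -0.16 on array 3 and -0.07 on array 4, while the medians of all genes lay between -0.02 and 0.02. Ratios below 0 were found for 17 of the 20 synthesis members on array 1, 8 on array 2, 17 on array 3 and 12 on array 4. Array 1, which had the lowest member median, also had the highest AAV_Null level of Idi1, Hmgcs1, Sqle and Cyp51. The 2 values are coupled, since a high AAV_Null level lowers the ratio on its array and these genes are among the members. Over the 20 synthesis members, each level was centred on its gene's mean over 8 channels. The median centred level in AAV_Null RNA was 0.40, -0.17, -0.03 and 0.29 on arrays 1 to 4. In AAV_Cre RNA it was -0.02, -0.17, -0.25 and 0.14. Across the 27 members the ratios of arrays 1 and 2 correlated at 0.29, those of arrays 3 and 4 at 0.30 and those of opposite orientation at -0.04 to 0.38. These correlations are across genes that share the same RNAs.

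**Figure D4:**
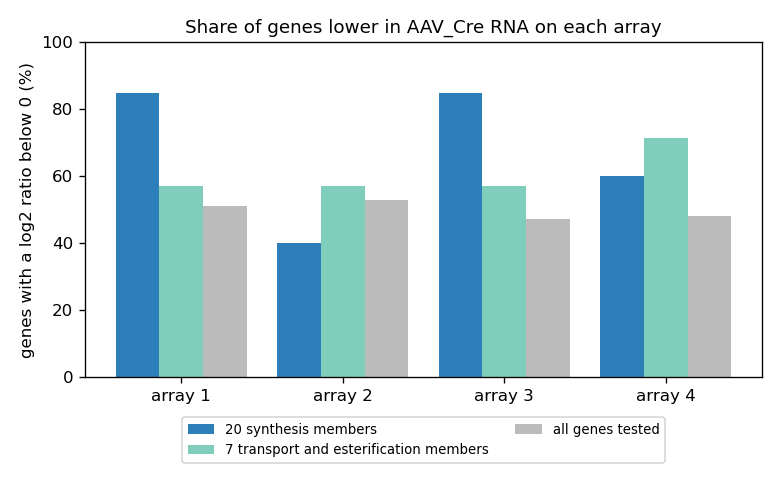
Share of genes with a log2 ratio below 0 (y axis, percent) on each array (x axis) for the 20 synthesis members, the 7 transport and esterification members and all genes tested. The synthesis bars stand at 85% on arrays 1 and 3, 60% on array 4 and 40% on array 2, and those of all genes between 47.2% and 52.9%.

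Leaving out array 2 in place of array 1 gave 22 members with a ratio below 0 and a median of -0.14. Hmgcs1, Sqle, Fdft1, Lss, Lbr and Pmvk had fitted ratios above 0 without array 1, the highest being 0.09 for Hmgcs1. That fit kept the dye term, so array 2, then alone in its orientation, weighed as much as arrays 3 and 4 together. On these arrays Hmgcs1 read 0.50, -0.37 and -0.27. Array 1 had that weight in the fit without array 2. Without any 1 of the arrays 0 members passed by limma, with 3, 11, 6 and 7 of 27 at an unadjusted p under 0.05 when arrays 1, 2, 3 and 4 were left out. Of all genes in the same fits, 13, 0, 0 and 0 passed. Their counts at an unadjusted p under 0.05 were 2420 of 16434, 2115 of 16057, 3151 of 16591 and 3301 of 16442. With 1 array left out Idi1 ranged from -0.56 to -0.44 and Soat2 from -0.44 to -0.39. An exact sign test over 4 arrays cannot go below a p of 0.125.

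Around the members stand 35 further sterol genes, of which 34 were tested. Of these 2 rose and 0 fell, beside 1.83% and 0.976% of all genes, and their median was 0.04. Both belong to the 10 genes of efflux, catabolism and hydrolysis, 7 of which had a ratio above 0, with a median of 0.19. Nceh1, a hydrolase of cholesteryl ester, read 0.23, 0.35, 0.81 and 0.68, for a fitted 0.52 ± 0.06 (limma adjusted p = 0.0301). Abcg5, one subunit of the transporter that exports sterol into bile, read 0.28, 0.29, 0.81 and 0.51, for a fitted 0.47 ± 0.07 (limma adjusted p = 0.0494). Its partner Abcg8 read 0.31 ± 0.06 (limma adjusted p = 0.0698) and did not pass.

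Of all genes, 22.6% had an unadjusted limma p under 0.05, the share to set beside the counts of these small lists. The 8 regulators held 0 calls by limma, with 4 at an unadjusted p under 0.05. Insig2, one of the proteins that retain SREBP in the endoplasmic reticulum, read 0.53, 1.35, 0.57 and 0.75, for a fitted 0.80 ± 0.15 (limma adjusted p = 0.0708). Insig1, the other Insig gene and itself a target of SREBP, is given here after its values were seen. It read -0.64, -0.24, -0.65 and -0.27, for a fitted -0.45 ± 0.10 (limma adjusted p = 0.102). Srebf2, which encodes SREBP-2 and was likewise chosen after its values were seen, read -0.17, -0.09, 0.41 and 0.42 and followed the dye orientation. Its fitted ratio was 0.14 ± 0.05 (limma adjusted p = 0.192). Scap, added in the same way, read -0.30, -0.30, -0.05 and -0.07, for a fitted -0.18 ± 0.05 (limma adjusted p = 0.13). The 5 other synthesis and target genes and the 6 tested genes of isoprenoid branches held 0 calls, with 0 and 1 at an unadjusted p under 0.05 and medians of -0.01 and 0.05. The 5 further carriers held 0 calls, 2 at an unadjusted p under 0.05 and a median of -0.07. Without any 1 of the arrays 0 of these further sterol genes passed by limma. At an unadjusted p under 0.05 there were 6 of 34, 8 of 33, 10 of 33 and 11 of 33 without arrays 1, 2, 3 and 4. Over all genes the counts were 2420 of 16434, 2115 of 16057, 3151 of 16591 and 3301 of 16442. Nceh1 and Abcg5 also did not pass with a normexp offset of 16, without the dye effect and with a robust and trended prior variance. Abcg5 further lost its call with no detection filter, with outlier spots kept and with the mean of a gene's probes, and Nceh1 in the separate-channel fit.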

How the data were processed

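Per the file headers, Agilent Feature Extraction 11.5.1.1 gave the spot intensity and local background of both dyes. The files also give a log10 ratio of Cy5 over Cy3. The authors' deposited log2 values are AAV_Cre over AAV_Null on each array, since their slope against that log10 ratio was 3.34, 3.33, -3.29 and -3.39 on arrays 1 to 4 (log2 of 10 is 3.32). Their medians were -0.02, -0.04, 0.04 and 0.04. The submitters' processing notes name limma but no steps, so the normalisation and centring of the deposited values stay unknown, and these served as an alternative. Of their 43173 rows, 2 had no match among the scanner's probes and were left out. The labels' protocols describe 2 labelling procedures, and which was used is not given in the sources used here.

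From the mean intensities, background was corrected with normexp (offset 50) and each array normalised by loess giving control and outlier spots no weight (limma 3.58.1, R 4.3.3). Outlier spots were left out. A probe entered the test when 3 or more of the 4 channels of a treatment were well above background, which left 20335 of 39429 probes with enough spots. The ratio was fitted with a dye effect by lmFit and eBayes (2 residual and 2.67 prior degrees of freedom), the probe of highest mean intensity stood for its gene, and p-values were adjusted over 16079 genes. The 4 arrays limit the precision: the median SE was 0.06 on the log2 scale. No label says that the RNAs came from separate animals. The SEs and p-values measure only the spread between arrays of the same orientation, which may be technical. The dye effect takes up any difference between the RNA pairs of the orientations. All arrays were on 1 slide. The fit was tested on simulated data.

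The members and lists were chosen with earlier results of these data known. All members were named, and of the further sterol genes those called, filled up to 4 by smallest p. Probe positions are mm9, from the array files. Symbols were updated through RefSeq (GRCm38.p6), by accession for 27508 probes and by synonym for 404. Promoter letters were counted in RefSeq's windows, with no entry for Soat2, Sqle, Fdps, Fdft1, Stard4 and Npc1. Alternatives were other background corrections, normalisations, filters, probe rules, variance settings and designs, a separate-channel fit (statmod 1.5.0), the authors' values and each array left out.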

Additional observations from a re-analysis of the deposited data

Results flagged for a closer look

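In 7 of 93 groups of 4 values, 1 value lay far from the other three by Dixon's criterion, where about 4.65 would by chance. The AAV_Cre level of Cyp51 on array 3 was 9.07, below 9.22 to 9.25 on the others. The AAV_Cre level of Dhcr7 on array 4 was 10.14, above 9.59 to 9.62. The AAV_Null level of Soat1 on array 3 was 6.71, below 7.29 to 7.36, and that of Lbr on array 1 was 8.84, above 8.39 to 8.47. The log2 ratio of Sc5d on array 4 was 0.078, above -0.16 to -0.13, and that of Stard4 on array 3 was -0.66, below -0.21 to -0.15. The median ratio of the lanosterol to cholesterol genes on array 2 was 0.053, above -0.16 to -0.14.

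For 6 members the ratios had one sign on arrays 1 and 2 and the other on arrays 3 and 4. The difference between the orientations, Cy5 minus Cy3 for AAV_Cre, was 0.24 for Acat2, 0.45 for Nsdhl, 0.53 for Hsd17b7, 0.34 for Npc2, 0.46 for Mylip and -0.34 for Osbp. It did not pass for any of the 6, with limma adjusted p-values of 0.367, 0.119, 0.160, 0.141, 0.0888 and 0.187. Dye and RNA pair cannot be told apart.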

How the results depend on the processing

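The call of Idi1 held in 9 and that of Soat2 in 8 of 16 alternatives, with ratios of -0.56 to -0.42 and -0.44 to -0.36 and limma adjusted p-values of 0.0159 to 0.217 and 0.00185 to 0.232. Members called were 0 with offset 16, 0 with no detection filter, 0 with robust and trended prior variance (6, 9 and 6 at an unadjusted p under 0.05), 1 with no dye effect (Idi1) and 0 in each fit without 1 array. The filter alternative tests more genes. For the other changes the cause was not tested. At an unadjusted limma p under 0.05 there were 3442 of 16079 genes with offset 16 and 4226 of 29983 with no detection filter. There were 3339 of 16079 with robust and trended prior variance and 2286 of 16079 with no dye effect. The members' median stayed between -0.18 and -0.02. Genes called were 451, against 1412 with no background correction, 200 with offset 16, 765 with median centring, 728 with processed signals, 288 with no filter, 286 with no dye effect, 0 with robust and trended variance (3339 unadjusted), 1372 with the deposited values, 2515 in the separate-channel fit (1305 higher and 1210 lower, against 294 and 157) and 0 to 13 without 1 array (2115 to 3301 unadjusted). Further sterol genes called were 2, against 6 with no background correction, 0 with offset 16, 4 with median centring, 1 with no filter, 1 with outlier spots kept, 1 with the mean of probes, 0 with no dye effect, 0 with robust and trended variance (11, 8 and 12 unadjusted for the 3 zeros), 6 with the deposited values, 8 in the separate-channel fit and 0 without 1 array.

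Mvd turned to -0.067 with no background correction, -0.086 with processed signals and -0.068 with the deposited values, and Pmvk to 0.013 with median centring. With 1 array left out at a time, the sign varied for Acat2 (-0.17 to 0.0016), Fdft1 (-0.30 to 0.0025), Hmgcs1 (-0.59 to 0.091), Lbr (-0.11 to 0.018), Lss (-0.21 to 0.034), Mvd (-0.094 to 0.10), Osbp (-0.037 to 0.082), Pmvk (-0.16 to 0.028), Soat1 (-0.43 to 0.026) and Sqle (-0.53 to 0.045). The fits without 1 array kept the dye term, so an array left alone in its orientation weighed as much as the other pair together. The cause of these changes was not tested. No paired analysis by replicate number was possible because arrays of opposite orientation share no number, and each array already pairs 1 RNA of each treatment. Dim probes limit Soat1 and Npc1l1.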
